A study of Mus musculus with 9 samples.

Results

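Pan02OE cells were compared with Pan02KD-CTL cells, a pair of lines that differ in *Nlrx1* overexpression and in the vector system used to make them. Pan02 is a mouse pancreatic ductal adenocarcinoma line. Pan02OE carries a lentiviral open reading frame (ORF) of murine NLRX1, and Pan02KD-CTL carries a scrambled lentiviral shRNA, the control of the knockdown system. Both lines were selected with puromycin and carry a GFP tag, and each is described as 1 line, so the ORF, the vector system and the history of the cells cannot be told apart in this comparison. The members are the 4 arrays whose labels name these lines, of 9 samples in the series. They comprise 2 Pan02OE and 2 Pan02KD-CTL arrays, 1 of each line in normal medium and 1 after 24 hours of a low dose of H2O2. The other lines are Pan02OE-CTL, made with control ORF particles, and Pan02KD, made with an shRNA against *Nlrx1*, with 2 arrays each in the same media. The remaining sample is labelled MRSL_Control and was not analysed here. RNA was measured on Clariom S arrays as log2 signal, on which a difference of 1 is 2-fold.

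NLRX1 is a NOD-like receptor that is found in mitochondria. It is best known as a negative regulator of inflammatory signaling through NF-κB and of antiviral interferon signaling through MAVS, and it has been tied to reactive oxygen species, autophagy and mitochondrial metabolism. An shRNA control line and an ORF line start from the same parental cells. The hairpin RNA made from the shRNA vector enters the RNA interference machinery, whereas the ORF transcript does not.

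*Nlrx1* read 17.10 in normal medium and 17.31 in H2O2 in Pan02OE, against 5.96 and 6.40 in Pan02KD-CTL. It was the largest difference of the comparison at 11.02 (SE 0.17, limma adjusted p = 4.1e-09), and it is a lower bound, because both Pan02KD-CTL values lay below 7.48, the brightest of the 23 background probe sets on these arrays. The arrays labelled Pan02KD read 6.68 and 6.56 and were not below those labelled Pan02KD-CTL, and the Pan02OE-CTL arrays (6.89 and 6.90) lay in the background as well. A knockdown could not be read from values in the background, and the paper checked the transduced lines by western blot for NLRX1 protein. *Nlrx1* RNA on these arrays thus checks the Pan02OE label alone, and line names below are those of the labels. Of 8 measured duct markers 5 (*Sox9*, *Krt19*, *Krt7*, *Muc1* and *Car2*) lay above background in both lines. None of the 10 acinar, 8 islet or 8 leukocyte markers did, while *Pdgfrb* among 9 fibroblast markers did so in Pan02KD-CTL and *Flt1* among 9 endothelial markers in both lines. Over all genes the Pan02OE arrays were nearer to the Pan02KD-CTL arrays (Euclidean distances of 61.0 to 71.7) than to any array of the other lines (88.0 to 92.7), and whether arrays of the other lines were exchanged was not tested, so what is read from the labels of Pan02OE-CTL, Pan02KD and Pan02KD-CTL depends on them. Within a line the media lay 39.1 apart in Pan02OE and 51.7 apart in Pan02KD-CTL.

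Of 19505 genes, 1243 (6.37%) passed an adjusted p under 0.05 between Pan02OE and Pan02KD-CTL. A total of 568 (2.91%) were higher in Pan02OE and 675 (3.46%) were lower, and 230 and 307 of these differed by at least 2-fold. Of the 8401 genes above background in either line 5.89% were higher and 6.76% lower. Counts of gene lists below are to be set against these shares. All 1243 had the same sign in both media and no overlap between the arrays of the lines, as did 9007 of all 19505 genes. In 360 of the 1243 the lower line lay within the background, where a difference is a lower bound, and in 180 both lines did. Besides the genes described so where they appear, the lower line lay in the background for *P2rx7*, *Bdkrb2*, *Sstr2*, *Akip1*, *Cbr2*, *Clca3a1*, *Gins1*, *Medag*, *Cmtm3*, *Ccl2*, *Tslp*, *Csf2*, *Mx2*, *Id3* and *Tbx15*. The median standard error of a difference was 0.17. Each line has 2 arrays in different media. The p-values therefore measure only the spread left over all 8 arrays of the 4 lines once line and medium are fitted. Without the Pan02OE array in normal medium 463 genes passed, without the one in H2O2 315, and without the Pan02KD-CTL array in H2O2 407.

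**Figure D1:**
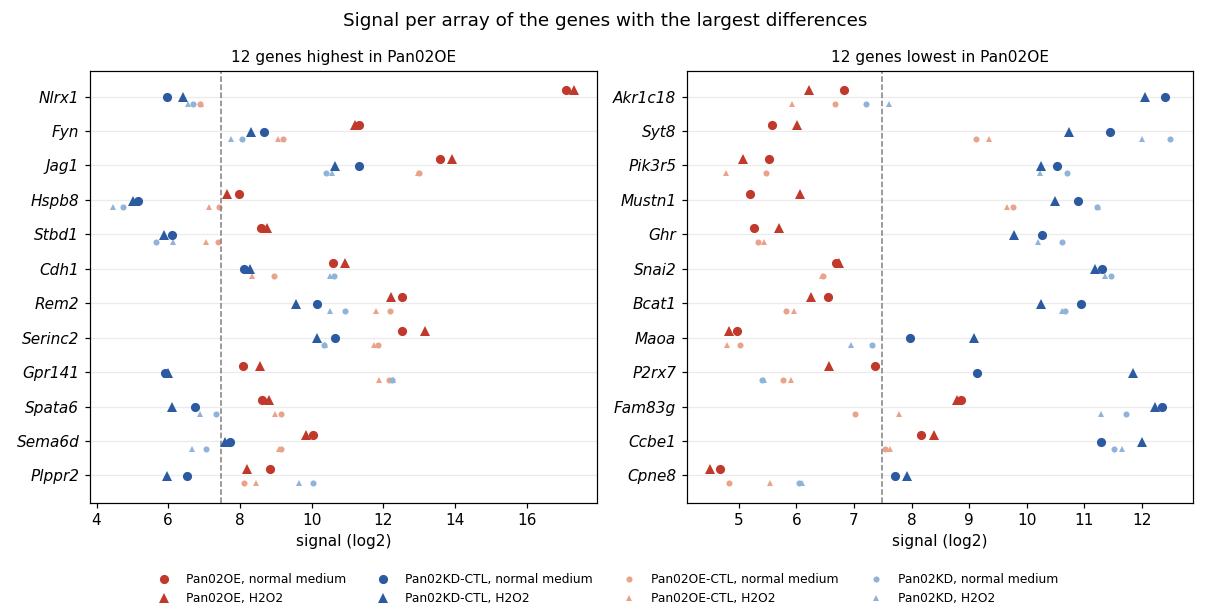
Signal (log2) of the 12 genes highest (left panel) and the 12 lowest (right panel) in Pan02OE relative to Pan02KD-CTL, with 1 point per array, circles for normal medium and triangles for H2O2, and smaller pale points for the other lines. The dashed line is the brightest background probe set (7.48). For *Snai2*, *Pik3r5*, *Ghr* and *Bcat1* the Pan02OE-CTL points lie with Pan02OE.

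After *Nlrx1*, *Fyn*, *Jag1*, *Hspb8*, *Stbd1* and *Cdh1* had the largest positive differences of the named genes. *Fyn*, a Src-family tyrosine kinase, read 11.32 and 11.22 in Pan02OE and 8.67 and 8.31 in Pan02KD-CTL, a rise of 2.78 (SE 0.15, adjusted p = 2.7e-05 by limma). *Jag1*, a ligand of Notch receptors, read 13.60 and 13.91 in Pan02OE against 11.32 and 10.64 in Pan02KD-CTL (2.77, SE 0.23). Both genes were above background in all 4 arrays. *Cdh1*, which encodes E-cadherin, read 10.59 and 10.94 in Pan02OE and 8.12 and 8.28 in Pan02KD-CTL (2.56, SE 0.22, adjusted p = 0.00033 by limma). *Krt19*, a keratin of duct epithelium, read 14.56 and 14.54 in Pan02OE and 12.53 and 12.04 in Pan02KD-CTL (2.27, SE 0.17). *Rem2*, a small GTPase that inhibits calcium channels, rose by 2.51, *Serinc2* by 2.43 and *Sema6d*, a transmembrane semaphorin, by 2.28. The small heat shock protein gene *Hspb8* (2.71), the glycogen-binding *Stbd1* (2.67), the orphan receptor gene *Gpr141* (2.37), *Spata6* (2.30) and *Plppr2* (2.27) also rose, and their differences are lower bounds because Pan02KD-CTL lay within the background.

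The genes lower in Pan02OE reached larger differences than those that were higher, *Nlrx1* aside. *Akr1c18*, a progesterone-metabolizing hydroxysteroid dehydrogenase, read 6.82 and 6.22 in Pan02OE and 12.40 and 12.06 in Pan02KD-CTL, and it fell by at least 5.71 (SE 0.25, adjusted p = 1.1e-05 by limma) with the Pan02OE level in the background. *Syt8*, a synaptotagmin, read 5.57 and 6.01 in Pan02OE against 11.44 and 10.73 in Pan02KD-CTL (-5.29, SE 0.27). For both genes the Pan02OE arrays sat within the background and the Pan02KD-CTL arrays far above it. *Pik3r5*, a regulatory subunit of the PI3K activated by G protein-coupled receptors, read 5.53 and 5.08 in Pan02OE and 10.53 and 10.24 in Pan02KD-CTL (-5.08, SE 0.16, adjusted p = 9.8e-07 by limma). *Snai2*, which encodes the transcription factor Slug, read 6.68 and 6.74 in Pan02OE and 11.31 and 11.18 in Pan02KD-CTL (-4.54, SE 0.15, adjusted p = 9.8e-07 by limma). *Mustn1* (-5.06), the growth hormone receptor *Ghr* (-4.54), the branched-chain aminotransferase *Bcat1* (-4.20), the monoamine oxidase *Maoa* (-3.64) and the copine *Cpne8* (-3.22) also fell, all with Pan02OE in the background. *P2rx7*, an ATP-gated channel, moved with the medium in Pan02KD-CTL, at 9.13 in normal medium and 11.85 in H2O2, against 7.37 and 6.57 in Pan02OE, and its difference of -3.52 had the largest error of the 12 (SE 0.63). *Fam83g* (8.85 and 8.78 in Pan02OE, 12.35 and 12.23 in Pan02KD-CTL) and *Ccbe1*, which acts in lymphatic vessel growth (averages of 8.28 in Pan02OE and 11.65 in Pan02KD-CTL), were measured above background in both lines.

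The level of each called gene in the other lines was then read, to see which lines lay on the same side. A gene was placed by the side of the midpoint between Pan02OE and Pan02KD-CTL on which the Pan02OE-CTL and Pan02KD means lay. Pan02OE stood alone on its side for 509 called genes (40.9% of called genes and 36.5% of all genes), 240 higher and 269 lower. *Nlrx1*, *Fyn*, *Stbd1* and *Krt19* led those that were higher, and *Syt8*, *Mustn1*, *Nrcam* and *Akip1* those that were lower. *Nrcam*, a neuronal adhesion molecule, read 9.05 and 9.37 in Pan02OE and 12.13 and 12.06 in Pan02KD-CTL, and averaged 16.12 in Pan02OE-CTL and 15.29 in the arrays labelled Pan02KD. Pan02KD-CTL stood alone on its side for 356 genes (28.6% of called genes and 34.3% of all genes). *Akr1c18*, *P2rx7*, *Cpne8* and the bradykinin receptor *Bdkrb2* were lower in Pan02OE, and *Gpr141*, *Plppr2*, the somatostatin receptor *Sstr2* and the syndecan *Sdc3* higher. Lines on the same side could still lie far apart. *Gpr141* averaged 8.32 in Pan02OE and 5.95 in Pan02KD-CTL, against 12.02 in Pan02OE-CTL and 12.26 in the arrays labelled Pan02KD. For this gene Pan02OE lay nearer to Pan02KD-CTL than to the other lines. *Akr1c18* averaged 6.29 in Pan02OE-CTL and 7.41 in the arrays labelled Pan02KD, both in the background like Pan02OE.

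For 326 called genes (26.2% of called genes, against 16.4% of all genes) the lines made with ORF vectors lay on one side and those made with shRNA vectors on the other. *Jag1*, *Hspb8*, *Rem2* and *Serinc2* led the 159 that were higher with the ORF vector, and *Pik3r5*, *Ghr*, *Snai2* and *Bcat1* the 167 that were lower. *Snai2* averaged 6.71 in Pan02OE, 6.46 in Pan02OE-CTL, 11.42 in the arrays labelled Pan02KD and 11.24 in Pan02KD-CTL. *Pik3r5* averaged 5.30 in Pan02OE, 5.13 in Pan02OE-CTL, 10.47 in the arrays labelled Pan02KD and 10.39 in Pan02KD-CTL. In both genes the arrays made with ORF vectors lay in the background and those made with shRNA vectors well above it. In the remaining 52 called genes (4.2%, against 12.8% of all genes) both modified lines lay apart from both controls. *Cdh1* led them, at 10.76 in Pan02OE and 10.57 in the arrays labelled Pan02KD, against 8.64 in Pan02OE-CTL and 8.20 in Pan02KD-CTL. The RNA-editing enzyme *Adarb1*, the scaffold *Cnksr2* and the carbonyl reductase *Cbr2* were also higher in this group, and *Clca3a1*, the replication factor *Gins1*, *Medag* and *Cmtm3* were lower. The sides were read from the means, with no test. Leaving out either Pan02OE array or the Pan02KD-CTL array in H2O2 left 111 to 190 genes with Pan02OE alone, 89 to 138 with Pan02KD-CTL alone, 102 to 120 that parted by vector and 13 to 16 in the last class, and without the Pan02KD-CTL array in normal medium Pan02KD-CTL stood alone for 544.

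Pan02OE-CTL against the arrays labelled Pan02KD also sets an ORF line against an shRNA line, and it shares no array with the comparison of Pan02OE and Pan02KD-CTL. In that pair 1488 genes (7.63%) passed, 806 higher and 682 lower in Pan02OE-CTL. Both pairs called 438 genes, which are 35.2% of the calls between Pan02OE and Pan02KD-CTL and 29.4% of the calls of the other pair, and 387 of them had the same sign. The error of each gene comes from the same fit in both pairs, so these shared calls are not independent. Of the 1243 called genes 938 (75.5%) had the same sign in the other pair, as had 55.2% of all genes. The pair's own differences for *Pik3r5* and *Snai2* were -5.34 and -4.96, close to those of Pan02OE over Pan02KD-CTL, and *Jag1* differed by 2.49. For *Nlrx1* it was 0.27, with all 4 arrays in the background. The difference between the 2 differences, tested per gene in the same limma fit, passed in 515 genes (2.64%). *Jag1* (adjusted p = 0.74), *Hspb8* (0.98), *Sema6d* (0.98), *Pik3r5* (0.65), *Ghr* (0.54) and *Snai2* (0.38) did not pass this test, which does not show that their differences were equal. Leaving out 1 array of either line of the other pair gave 513 to 592 calls in that pair and 176 to 242 for the difference between the differences. Without the Pan02OE array in normal medium 271 genes passed the test of that difference, without the one in H2O2 246, and without the Pan02KD-CTL array in H2O2 302.

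**Figure D2:**
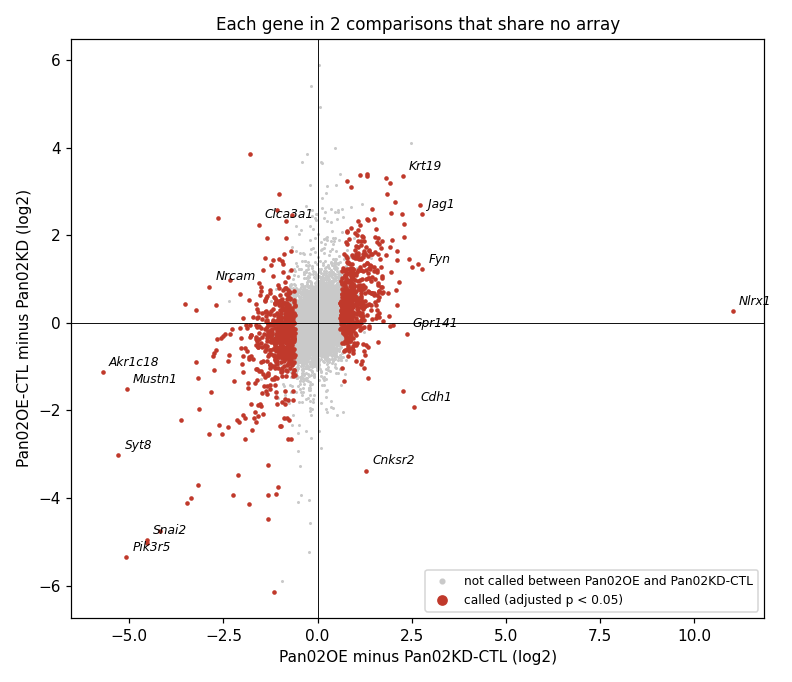
Difference of Pan02OE minus Pan02KD-CTL (x axis, log2) and of Pan02OE-CTL minus Pan02KD as labelled (y axis, log2), with 1 point per gene and the 1243 called genes in red. *Pik3r5* and *Snai2* lie low in both, *Cdh1* and *Cnksr2* have opposite signs, and *Nlrx1* lies far to the right at 0.27 on the y axis.

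Genes that are transcribed when the ERK MAP kinases are active formed the list, of 29, with the largest share of higher calls. Growth factor receptors activate ERK through RAS and RAF, ERK induces immediate early transcription factors, and the DUSP, SPRY and SPRED proteins it also induces restrain the pathway in turn. Of 21 measured members 11 rose in Pan02OE and none fell (limma), also at an unadjusted p under 0.05, where 13 were higher and 0 lower, with a median difference of 0.89 against 0.01 over all genes. Among the transcription factors, *Egr3* read 10.34 and 9.96 in Pan02OE and 8.66 and 7.82 in Pan02KD-CTL (1.91, SE 0.24), and *Egr2* read 12.52 and 12.06 in Pan02OE and 10.93 and 10.03 in Pan02KD-CTL (1.81, SE 0.24). *Egr1* read 15.31 and 14.75 in Pan02OE against 14.25 and 13.20 in Pan02KD-CTL (1.30, SE 0.24). In all 3 both lines had the lower value in H2O2. Among the feedback inhibitors, the ERK phosphatase *Dusp6* read 15.87 and 16.00 in Pan02OE and 14.79 and 14.42 in Pan02KD-CTL (1.33, SE 0.17, adjusted p = 0.0028 by limma), and *Spry1* read 10.58 and 10.32 in Pan02OE and 9.41 and 8.73 in Pan02KD-CTL (1.38, SE 0.18). *Spry2* rose by 1.26, *Spred3* by 1.00 and *Spred2* by 0.89, and the early genes *Ier2* and *Phlda1* by 1.25 and 1.15. Not every member moved: *Myc* (0.15), *Fosl1* (0.23), *Dusp4* (-0.02), *Etv4* (-0.09) and *Ier3* (-0.38) did not pass.

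The nuclear ERK phosphatase *Dusp5* read 15.50 and 15.51 in Pan02OE and 14.79 and 14.14 in Pan02KD-CTL (1.04, SE 0.24, adjusted p = 0.036 by limma). Its upstream sequence is shown for the CArG box, CC followed by A or T bases and GG, which serum response factor binds at early response genes. The stretch from RefSeq (GRCm38.p6, chr19:53529033-53529112, plus strand) starts 30 bases before the first of 2 adjoining matches, the first at positions -82 to -73 from the start site, and capitals mark the matches.
Dusp5: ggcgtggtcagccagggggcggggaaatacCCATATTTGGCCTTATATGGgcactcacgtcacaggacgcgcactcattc
Of the called members 7 had an upstream window of 250 bases here, and the box was found on either strand in 2, *Dusp5* and *Egr2*. It was found in 1.47% of all 32851 windows. A gene can have several windows, so this share per window cannot be set directly against the count of genes. A match is a description of the letters only.

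The ERK-responsive genes were also read in the other pair. Of the same 21 genes 15 were higher in Pan02OE-CTL than in the arrays labelled Pan02KD and none was lower, with a median of 1.07, and the difference between the differences passed in 3. *Egr1* averaged 15.54 in Pan02OE-CTL and 12.15 in the arrays labelled Pan02KD. Without the Pan02OE array in normal medium 5 of the 21 rose, without the one in H2O2 6, and without the Pan02KD-CTL array in H2O2 5. Without the Pan02KD-CTL array in normal medium 10 rose and 1 fell, *Etv1*, which lies in the background.

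**Figure D3:**
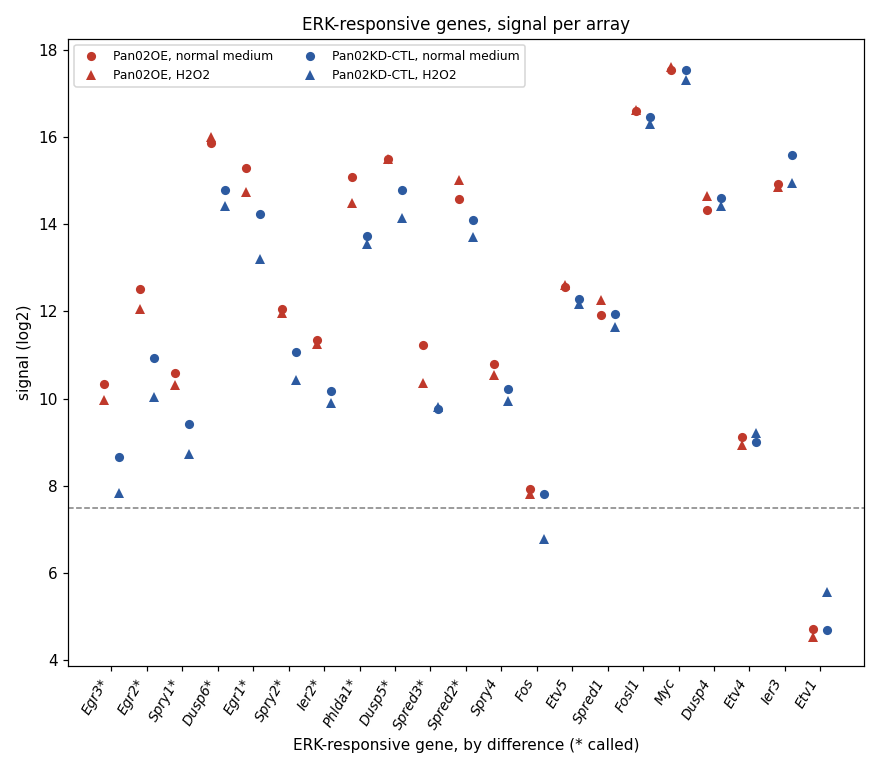
Signal (log2) of the 21 ERK-responsive genes in Pan02OE (red, left of each pair) and Pan02KD-CTL (blue, right), with circles for normal medium and triangles for H2O2, ordered by their difference. Asterisks mark the 11 called genes, and the dashed line is the brightest background probe set.

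Upstream of ERK, growth factor ligands and receptors divided. Of 45 measured members 7 rose and 3 fell. *Egfr*, the epidermal growth factor receptor, read 10.37 and 10.41 in Pan02OE and 8.61 and 8.54 in Pan02KD-CTL (1.82, SE 0.16, adjusted p = 0.00032 by limma), and its ligand *Btc* read 11.92 and 12.36 in Pan02OE and 10.81 and 10.11 in Pan02KD-CTL (1.68, SE 0.24). The receptors *Fgfr1* (2.10) and *Flt1* (1.98) also rose. *Pdgfrb*, the PDGF receptor, read 6.95 and 6.66 in Pan02OE, within the background, and 9.86 and 9.31 in Pan02KD-CTL, a fall of 2.78 (SE 0.18). *Vegfb* fell by 1.76. *Fgfr1* read 8.63 and 8.69 in Pan02OE and was within the background in Pan02KD-CTL, so these 2 lines differed in which receptor tyrosine kinases were measurable. Without the Pan02OE array in H2O2 3 members rose, and without the Pan02KD-CTL array in H2O2 4. In the PI3K-AKT list 5 of 30 rose and 3 fell. Beside *Pik3r5* the regulatory subunit *Pik3r3* fell (-1.06), and the kinase *Sgk1* rose by 1.08. The remaining member that fell, *Pdk1* (-1.50), encodes pyruvate dehydrogenase kinase and is no component of PI3K-AKT signaling despite its place in this list.

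Cytokines and chemokines were called lower more often than higher in Pan02OE. Of 38 measured members 8 fell and 2 rose, and the median difference was -0.13, with 17 differences positive. The list medians were -0.05 in normal medium and 0.02 in H2O2. In normal medium 9 members were lower by 2-fold and 1 higher, and in H2O2 5 were lower and 4 higher. *Csf2*, which encodes the growth factor GM-CSF, read 8.15 and 6.80 in Pan02OE and 10.66 and 9.21 in Pan02KD-CTL (-2.46, SE 0.34, adjusted p = 0.0041 by limma). The neutrophil chemokine *Cxcl3* read 10.55 and 10.19 in Pan02OE against 12.60 and 11.79 in Pan02KD-CTL (-1.82, SE 0.18), and *Cxcl2* read 13.42 and 13.17 in Pan02OE and 14.93 and 14.32 in Pan02KD-CTL (-1.33, SE 0.20). In each of these the H2O2 arrays were the lower ones within each line. The monocyte chemokine *Ccl2* (-1.49), *Tslp* (-1.37), *Cxcl16* (-1.11), *Tnfsf9* (-0.84) and *Csf1* (-0.64) fell too. *Il6* went the other way, at 7.59 and 7.44 in Pan02OE and 6.49 and 5.81 in Pan02KD-CTL (1.37, SE 0.21), close to or within the background in all 4 arrays. Without the Pan02OE array in normal medium 4 members fell and 2 rose. *Il6* averaged 11.02 in Pan02OE-CTL and 9.36 in the arrays labelled Pan02KD.

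The *Cxcl2* and *Cxcl3* genes are neighbors of one family, and both hold the decamer that NF-κB dimers bind. Shown is the sequence around it on the plus strand (RefSeq, GRCm38.p6), at chr5:90903772-90903842 for *Cxcl2* and chr5:90785998-90786068 for *Cxcl3*, with capitals for the stretch covered by 2 overlapping matches on opposite strands.
Cxcl2: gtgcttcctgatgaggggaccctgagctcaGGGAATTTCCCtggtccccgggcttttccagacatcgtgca
Cxcl3: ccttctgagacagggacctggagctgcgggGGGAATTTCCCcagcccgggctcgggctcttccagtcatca
The NF-κB consensus was found, on either strand, in the windows of 4 of 5 called cytokine genes that had one, *Csf1*, *Il6*, *Cxcl2* and *Cxcl3*. It was found in 3.9% of all windows, a share per window that cannot be set directly against a count of genes. These 4 included genes that fell and *Il6*, which rose.

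Genes of NF-κB signaling were called at about the share of all genes (6.37%). Of the 25 above background 0 were higher and 2 lower, against 5.89% and 6.76% of all genes above background. Of 29 components measured 2 fell, the adaptor *Fadd* (-1.19) and the kinase *Irak2* (-0.68), and none rose (limma), with 5 higher and 5 lower at an unadjusted p under 0.05. Of 20 NLRX1 partners and NOD-like receptor genes only *Nlrx1* passed, and the values of *Mavs* (0.19), *Traf6* (-0.05), *Tufm* (0.61, adjusted p = 0.068 by limma) and *Sting1* (0.39) did not. In the interferon response list 4 of 33 fell and 1 rose, but 22 of the 33 differences were positive and the median was 0.09. At an unadjusted p under 0.05 (limma) 4 were higher and 6 lower. The antiviral *Bst2* (-1.12) and *Trim25* (-0.96) and the transcription factor *Irf1* (-0.66) fell, and *Mx2* rose by 1.19. *Gbp2* (-0.83) fell within the background in all 4 arrays. Of 29 genes of antigen presentation and immune ligands 3 fell, among them the class I chain *H2-K1* at 13.15 and 13.09 in Pan02OE against 13.89 and 14.16 in Pan02KD-CTL (-0.90, SE 0.17) and the costimulatory ligand *Cd80* (-1.24), and the checkpoint ligand *Cd276* rose by 0.90. Among cytokine receptors 3 of 36 rose and 3 fell, with the interleukin-1 receptor *Il1r1* 1.19 higher. One of the 3 that fell, *Il1rap*, lay within the background in all 4 arrays.

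Mitochondrial genes were hardly called. None of 47 carriers, import and dynamics genes passed (5 higher and 7 lower at an unadjusted p under 0.05), with the mitophagy receptor gene *Bnip3l* at the largest difference (-0.63, adjusted p = 0.065 by limma), and of 46 subunits of oxidative phosphorylation only *Ndufa1* did (-0.60). Both shares lie below the 6.37% over all genes. Redox genes moved more. Of 48 members of the NRF2 and glutathione list 8 fell and 3 rose. The cystine transporter *Slc7a11* read 11.04 and 11.43 in Pan02OE and 12.76 and 12.98 in Pan02KD-CTL (-1.63, SE 0.19, adjusted p = 0.0018 by limma), and heme oxygenase *Hmox1* read 13.88 and 13.78 in Pan02OE and 15.01 and 15.18 in Pan02KD-CTL (-1.26, SE 0.15). *Xdh*, *Mgst1*, *Prdx4*, *Cat*, *Gstp1* and *Mgst2* fell as well (-1.14 to -0.72). *Gstm2* rose by 1.57, *Srxn1*, which reduces oxidized peroxiredoxins, by 1.18 and *Gstm1* by 0.77, so that the list did not move as one. Without the Pan02OE array in normal medium 3 fell, and without the Pan02OE or the Pan02KD-CTL array in H2O2 2 fell in each case.

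Of 31 genes of sterol and fatty acid synthesis 8 fell and 1 rose, 7 and 1 of them above background, with a median difference of -0.32. The farnesyl diphosphate synthase *Fdps* read 9.34 and 9.79 in Pan02OE and 11.04 and 10.80 in Pan02KD-CTL (-1.35, SE 0.19), and lanosterol synthase *Lss* read 9.35 and 9.59 in Pan02OE and 10.45 and 10.58 in Pan02KD-CTL (-1.05, SE 0.17). *Insig1*, a sterol sensor of the endoplasmic reticulum, the desaturases *Fads2* and *Fads1* and the sterol demethylase *Cyp51* fell (-1.12, -0.99, -0.85 and -0.78 in this order), while *Hmgcs1*, an early enzyme of the pathway, rose by 0.74. Without either Pan02OE array 2 fell, and without the Pan02KD-CTL array in H2O2 3. In the glycolysis and hypoxia list 4 of 33 fell, among them hexokinase *Hk2* (-0.98) and *Pdk1* (-1.50), and 3 rose, among them the glucose transporter *Slc2a1* at 15.36 and 15.42 in Pan02OE and 14.48 and 14.20 in Pan02KD-CTL (1.05, SE 0.17). Of 36 genes of aldo-keto reductases, retinoid and xenobiotic metabolism 4 fell and 3 rose. *Akr1c18* and the aldehyde dehydrogenase *Aldh3a1* (-1.47) led the genes that fell, and the retinal reductase *Dhrs3* rose by 1.42.

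Epithelial and mesenchymal genes did not part along a single line. Of 39 epithelial junction and keratin genes 5 rose and 2 fell, 4 and 2 of them above background. *Krt19*, the protease inhibitor *Spint1* (1.68), *Krt8* (1.04) and the plakophilin *Pkp2* (1.01) were higher whereas *Krt80* (-1.24) and the mucin *Muc1* (-1.12) were lower. Of 24 EMT factors and cadherins 4 rose and 3 fell, 3 and 3 of them above background. The EMT factors *Snai2* (-4.54) and *Twist1* (-0.84) fell while *Cdh1* rose, but the EMT factor *Snai1* (0.97) and vimentin *Vim* (0.74) rose too. *Vim* read 17.23 and 17.23 in Pan02OE and 16.46 and 16.52 in Pan02KD-CTL. In the arrays labelled Pan02KD *Snai2* was high at 11.42 and *Cdh1* was high at 10.57, so these genes did not oppose each other across the 4 lines. Of 37 matrix genes 3 rose and 1 fell, 2 and 1 of them above background. *Sparc* read 14.37 and 14.38 in Pan02OE and 13.09 and 12.23 in Pan02KD-CTL (1.72, SE 0.21), and the fibulin *Efemp1* read 7.85 and 8.01 in Pan02OE and 10.71 and 10.57 in Pan02KD-CTL (-2.71, SE 0.17).

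Of 30 integrin and laminin genes 4 rose, with *Lama5* at 1.16, and none fell (limma; 7 higher and 1 lower at an unadjusted p under 0.05). One that rose, *Itga2*, lay within the background in all 4 arrays. Of these 30 genes 0 passed without the Pan02OE array in H2O2, 0 without the Pan02KD-CTL array in H2O2, and 1 without the Pan02OE array in normal medium. Collagenase *Mmp13* read 8.13 and 7.98 in Pan02OE and 10.67 and 9.69 in Pan02KD-CTL (-2.12, SE 0.20), and *Adamts1* and *Serpinb2* rose by 2.12 and 2.08 from the background. Of the 33 protease genes 4 rose and 2 fell, 3 and 2 of them above background. Among guidance and adhesion molecules 5 of 47 rose and 3 fell. *Sema3a*, a secreted semaphorin, read 7.43 and 7.60 in Pan02OE and 9.97 and 10.54 in Pan02KD-CTL (-2.74, SE 0.20), and *Nrcam* (-2.88) and the leukocyte ligand *Vcam1* (-1.16) fell as well. Of 27 contractile and YAP-responsive genes 4 rose and 2 fell, with the receptor kinase *Axl* (-1.78) and caldesmon *Cald1* (-2.06) lower and tissue factor *F3* (1.12) and *Ccn1* (0.64) higher. TGF-β and BMP genes (2 of 43 higher, 3 lower) and tetraspanins and lysosomal membrane genes (3 of 39 higher, 2 lower) exceeded the 6.37% over all genes. Above background 2 of 27 and 2 of 24 were higher, and as many were lower. These shares lie near the 5.89% higher and 6.76% lower of all genes above background. Wnt genes (2 of 46 higher, 1 lower) were called at about the share of all genes. Homeobox genes (1 of 45 higher, none lower) were called at a smaller share. The inhibitor of differentiation *Id3* (1.24), the Frizzled receptor *Fzd5* (1.36), the tetraspanin *Cd9* (1.09) and the T-box factor *Tbx15* (1.43) rose, and the cholesterol transporter *Npc1* fell by 1.21.

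Of 36 cell cycle genes 6 fell and 2 rose, 5 and 2 of them above background, with a median difference of -0.36. The proliferation marker *Mki67* read 13.07 and 13.15 in Pan02OE and 13.74 and 14.08 in Pan02KD-CTL (-0.80, SE 0.16, adjusted p = 0.018 by limma), and *Ccne1*, which encodes cyclin E, and the checkpoint kinase *Bub1* fell (-0.96 and -0.94), while *E2f2* and *E2f8* rose by 0.81 and 0.80. No member of the list fell without the Pan02OE or the Pan02KD-CTL array in H2O2, and 1 did without the Pan02OE array in normal medium. Of 40 p53 targets and BCL-2 family genes 2 rose, among them the antiproliferative *Btg2* (1.13), and 1 fell, *Gadd45a* (-0.75). That is close to the 6.37% over all genes. Above background 2 of 31 were higher and 1 lower, against 5.89% and 6.76% of all genes above background. Of 37 genes of the unfolded protein and heat shock response 4 rose and 2 fell, all of them among the 35 above background. These counts are again to be set against 5.89% higher and 6.76% lower. The list median was 0.02, and at an unadjusted p under 0.05 (limma) 7 were higher and 8 lower. *Chac1*, a glutathione-degrading enzyme induced by ATF4, read 11.99 and 11.84 in Pan02OE and 14.01 and 13.06 in Pan02KD-CTL (-1.62, SE 0.25), and *Xbp1* and *Atf3* rose by 0.94 and 0.91.

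**Figure D4:**
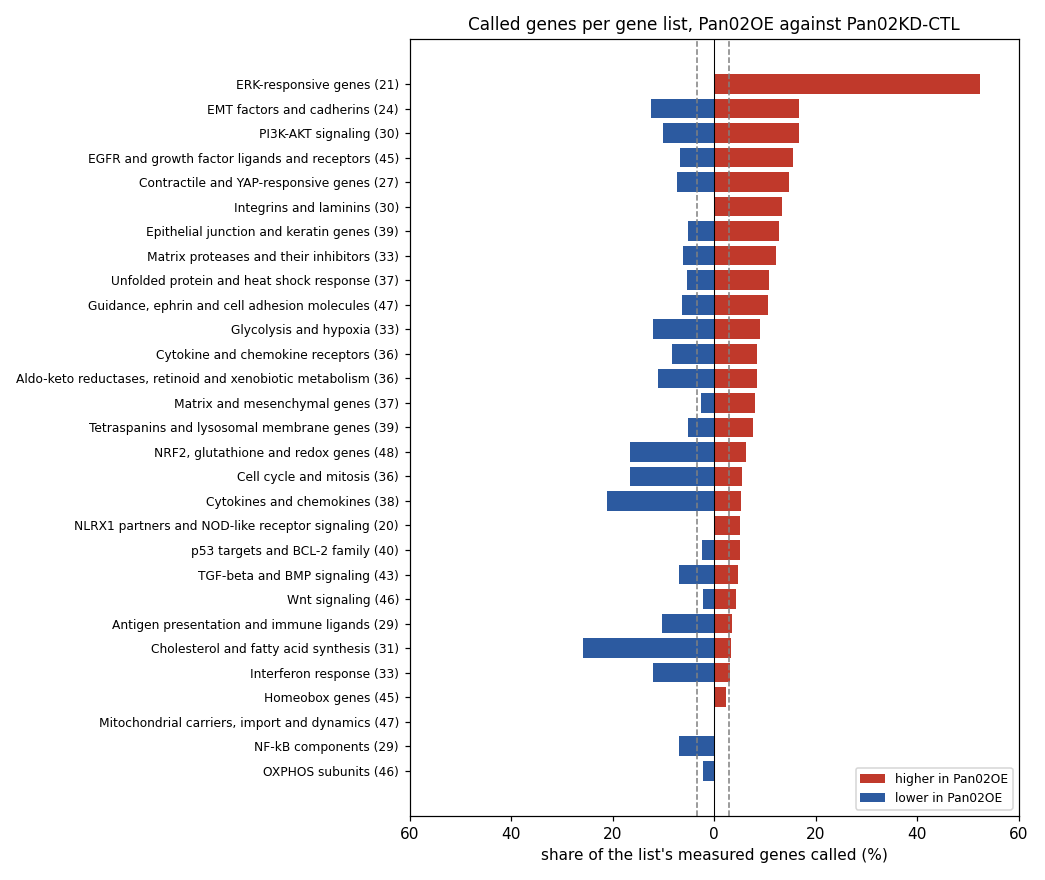
Share of the measured genes of each list (%, number measured in parentheses) that were higher (red, right) or lower (blue, left) in Pan02OE than in Pan02KD-CTL. Dashed lines show the shares over all genes (2.91% higher and 3.46% lower), and the bar of the ERK-responsive genes (11 of 21) reaches furthest right.

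In normal medium alone 544 genes (2.79%) differed by at least 2-fold between Pan02OE and Pan02KD-CTL, 223 higher and 321 lower, and in H2O2 983 (5.04%) did, 405 higher and 578 lower. With 1 array per line and medium these counts have no test. Of these genes 330 passed 2-fold in both media with the same sign and 2 with opposite signs, and across genes the differences in the media correlated at r = 0.53, a description over genes that share the arrays. The Pan02KD-CTL arrays differed from each other by 2-fold in 271 genes and the Pan02OE arrays in 45, and 24 and 5 of the 1243 called genes were among them. *P2rx7* was the clearest case among the leading genes, with a difference of -1.77 in normal medium and -5.28 in H2O2. The medians of the ERK-responsive list were 0.57 in normal medium and 0.94 in H2O2.

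The shares of called genes differed between chromosomes, which were looked at after the values were seen. Among the 8401 genes above background in either line, 5.89% were called higher and 6.76% lower. On chromosome 10, 56 of 433 such genes were higher in Pan02OE and 6 were lower, and the median difference was 0.24. On chromosome 6, 8 of 373 were higher and 54 lower (median -0.18), and on chromosome X 14 of 259 were higher and 38 lower (median -0.25). On chromosome 13 the counts were 41 higher and 15 lower of 355, and on chromosome 5 they were 20 and 63 of 567. Differences were positive for 71.4% of genes on chromosome 10, 31.4% on chromosome 6 and 28.2% on chromosome X, against 52.9% over all 8401 genes above background. The medians kept their sign in each medium, at 0.21 in normal medium and 0.29 in H2O2 on chromosome 10, and -0.22 and -0.15 on chromosome 6. After cyclic loess the counts were 52 higher and 6 lower on chromosome 10 and 7 higher and 64 lower on chromosome 6. In Pan02OE-CTL against the arrays labelled Pan02KD the medians were 0.02 on chromosome 10, -0.16 on chromosome 6 and -0.26 on chromosome X.

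**Figure D5:**
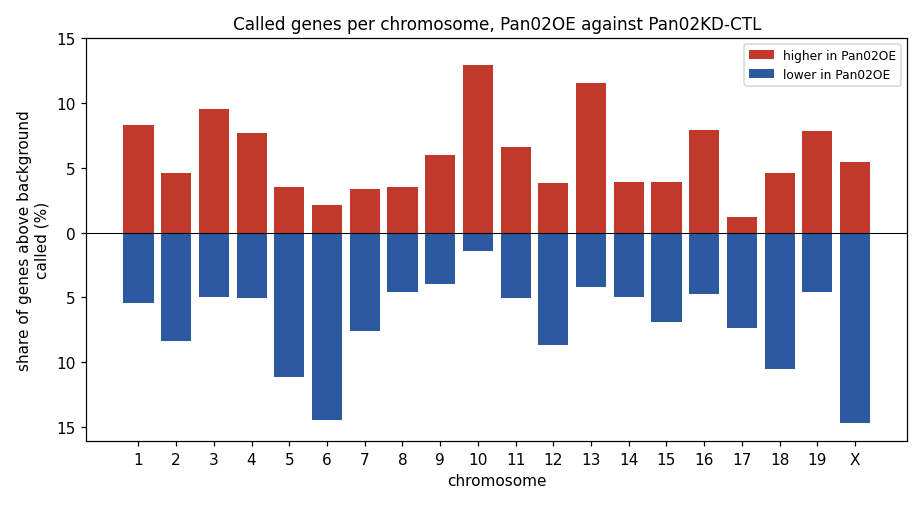
Share of genes above background (%) on each chromosome that were higher (red, upward) or lower (blue, downward) in Pan02OE than in Pan02KD-CTL. Chromosome 10 has 56 higher and 6 lower genes, and chromosomes 6 and X have 54 and 38 lower genes.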

How the data were processed

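The deposited values are log2 signals that the authors made from Clariom S arrays, and the submitters' processing notes name the Transcriptome Analysis Console, with no version; how probes were summarized and normalized, and the build, are not given in the sources used here. Controls make up 6640 of the 28846 probe sets. A single gene symbol was found for 19572 of the other 22206, several for 0 and none for 2634, and the probe set with the highest mean was kept for each of 19505 genes. Array medians were 6.51 to 6.58, and nothing was normalized further. Arrays have no depth, and their number, 2 per line, limits the precision.

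Line and medium were fitted as additive terms over all 8 arrays with limma 3.58.1 in R 4.3.3 (lmFit, eBayes; 3 residual and 6.2 prior degrees of freedom), with Benjamini-Hochberg adjustment over all genes and a threshold of 0.05. Medium pairs the arrays of the lines, by the labels. The fit was tested on simulated data. The background is the brightest of 23 antigenomic probe sets (3.4 to 7.48, median 6.54). The comparison, the 29 gene lists, the 6 marker lists and the rule for naming genes were chosen with earlier results of these data known. Named are *Nlrx1*, the 12 largest differences in each direction, the 4 largest of each pattern and direction (called, the same sign in both media, higher line over the all-gene median, predicted names left out), and the 4 largest called members of each list; further list members were named after their values were seen. Sequences are from RefSeq windows of 250 bases before the start site. Alternatives were other scalings, filters, variance models and sets of arrays.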

Additional observations from a re-analysis of the deposited data

Results flagged for a closer look

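The difference of Pan02OE over Pan02KD-CTL and that of Pan02OE-CTL over the arrays labelled Pan02KD were tested against each other per gene in the limma fit (adjusted p under 0.05), and 515 genes passed, 201 with a positive and 314 with a negative value. Among the leading genes overall and of each pattern the difference between these differences (log2) was positive for *Nlrx1* (10.75), *Cnksr2* (4.66), *Cdh1* (4.50), *Plppr2* (3.83), *Gpr141* (2.61), *Adarb1* (1.87), *Cbr2* (1.69), *Fyn* (1.55) and *Rem2* (1.23). It was negative for *Akr1c18* (-4.59), *Clca3a1* (-3.81), *Nrcam* (-3.71), *Mustn1* (-3.55), *Bdkrb2* (-3.51), *Gins1* (-2.49), *Cpne8* (-2.34), *Medag* (-2.32), *Syt8* (-2.27), *Cmtm3* (-1.94), *Akip1* (-1.67) and *Krt19* (-1.09). Of the 1243 genes called between Pan02OE and Pan02KD-CTL, 258 passed this test too. Whether the vector, the ORF or the population sets these values cannot be told apart.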

How the results depend on the processing

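The count of 1243 genes was 1268 after centring arrays on their medians, 1235 after cyclic loess and 1210 with no block for the medium, which pairs the arrays; dropping that block changed no other count by over 1.5 times. A filter on the background probe sets gave 2018 calls (1001 higher, 1017 lower; 861 with Pan02OE alone, 593 with Pan02KD-CTL alone, 80 with the modified lines apart) and 967 for the difference of the differences. A variance trend with robust estimation gave 2006 (993 higher, 1013 lower; 858, 590 and 80 in the same classes), 2267 in the other pair and 1088 for the difference of the differences. The 4 arrays alone gave 799 (345 higher; 314 with Pan02OE alone, 211 by vector, 32 with the modified lines apart), and at least 2-fold 537. Leaving out 1 array gave 315 to 1271 calls, 125 to 548 higher, 190 to 723 lower, 513 to 1688 in the other pair and 176 to 626 for the difference of the differences. By class these ranges were 111 to 407 with Pan02OE alone, 89 to 544 with Pan02KD-CTL alone, 102 to 268 by vector and 13 to 53 with the modified lines apart.

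Of 129 called named genes 65 kept their call under all 16 alternatives, 117 under all but the leave-outs and the 4-array fit, and 0 changed sign. Calls fell by over 1.5 times in 20 of the 29 lists without the Pan02OE array in normal medium, 24 without that in H2O2 and 22 without the Pan02KD-CTL array in H2O2 (chosen after seeing the data). The cause was not tested, beyond fewer genes tested under filters and fewer arrays. Signals below 7.48 limit what can be told of low genes.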

Other observations

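Some genes had a modest difference between Pan02OE and Pan02KD-CTL beside a far larger distance of both from the other lines. The T cell costimulatory ligand *Tnfsf9* read 8.02 and 8.15 in Pan02OE and 9.12 and 8.73 in Pan02KD-CTL, and averaged 15.54 in Pan02OE-CTL and 13.22 in the arrays labelled Pan02KD. The tetraspanin *Tspan8* lay within the background in all 4 arrays of Pan02OE and Pan02KD-CTL, and averaged 12.43 in Pan02OE-CTL and 10.92 in the arrays labelled Pan02KD. *Spry1* averaged 14.50 in Pan02OE-CTL and 13.26 in the arrays labelled Pan02KD. *Dhrs3* was the reverse, at 11.86 and 12.11 in Pan02OE and 10.49 and 10.63 in Pan02KD-CTL, and within the background in the other lines (averages of 5.84 and 4.88). The insulin-like growth factor binding protein *Igfbp4* read 10.67 and 10.57 in Pan02OE and 11.49 and 11.44 in Pan02KD-CTL, and averaged 15.55 in Pan02OE-CTL and 14.88 in the arrays labelled Pan02KD. These genes were chosen after their values were seen.

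*Vcam1* and the chemokines *Cxcl2* and *Cxcl16* were lowest in Pan02OE-CTL. *Vcam1* read 11.69 and 11.28 in Pan02OE and 13.07 and 12.22 in Pan02KD-CTL, and averaged 7.37 in Pan02OE-CTL and 13.51 in the arrays labelled Pan02KD. *Cxcl2* averaged 8.72 and *Cxcl16* 8.87 in Pan02OE-CTL, against 13.20 and 12.78 in the arrays labelled Pan02KD.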
